A study of Mus musculus with 25 samples.

Results

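The miR-30 family was followed through mouse mammary tumours and normal mammary gland. Members were the arms that the array's design names mmu-miR-30a-5p, mmu-miR-30a-3p, mmu-miR-30b-5p, mmu-miR-30c-5p, mmu-miR-30d-5p and mmu-miR-30e-5p, 6 of the 1122 mouse miRNAs on the array, matched by name alone and written here without the species prefix. All tissue came from female FVB mice and was snap-frozen at necropsy. The 25 one-colour arrays held 2 pools of normal mammary gland from wild-type mice, 7 tumours of MMTV-Met mice (called Met here), 8 tumours of MMTV-Met;Trp53fl/+ mice with Cre (MetTrp53) and 8 tumours of Trp53fl/+ mice with Cre (Trp53). Met is a receptor tyrosine kinase, here expressed from the promoter of the mouse mammary tumour virus, and Trp53 encodes the tumour suppressor p53, of which 1 allele can be deleted by Cre. The promoter that drives Cre and the ages of the mice are not given in the sources used here. Normal pool 1 came from multiparous mice and normal pool 2 from nulliparous mice, with the number of glands per pool not given. Of the Met tumours, 6 came from multiparous mice and 1 has no stated parity. The MetTrp53 tumours came from 2 multiparous and 6 nulliparous mice. Of the Trp53 tumours, 2 came from multiparous and 3 from nulliparous mice, and 3 have no stated parity.

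Pathology differed between the genotypes. The 7 Met tumours were 3 solid nodular carcinomas (tumours 1, 3 and 6), 1 adenosquamous, 1 scirrhous and 1 other adenocarcinoma (tumours 4, 5 and 7) and 1 spindloid tumour (tumour 2), spindloid being the labels' word for spindle-shaped growth. The 8 MetTrp53 tumours were 3 carcinomas (1, 3 and 5), 3 spindloid tumours (2, 4 and 7), 1 called intermediate (6) and 1 without a stated pathology (8). The 8 Trp53 tumours were 3 carcinomas (2, 3 and 4), 3 spindloid tumours (1, 7 and 8) and 2 called intermediate (5 and 6). Tumour numbers only name the samples. Trp53 tumours 2 and 3 share a number in their titles, as do Trp53 tumours 4 and 8, and no label states that the tumours are from separate animals. P-values therefore measure the spread between these samples.

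A miRNA is cut from a hairpin whose 5p and 3p arms can each be loaded into the silencing complex, and it recognises target mRNAs mainly through its seed, bases 2 to 8. The 5p arms of the miR-30 family share a seed, so that they can act on overlapping sets of targets. In epithelial cells the family is known for restraining the transcription factor Snai1 and the mesenchymal filament protein vimentin. In the mammary gland, forced miR-30b has been reported to disturb lactation. The members come from neighbouring gene pairs: Mir30a with Mir30c-2, Mir30b with Mir30d, and Mir30e with Mir30c-1. In RefSeq's gene table no other gene lies between the genes of a pair, and Mir30e and Mir30c-1 lie within the span of Nfyc, which encodes a subunit of the transcription factor NF-Y.

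The mature sequences show which members share a seed and how little separates some of them. They were taken from RefSeq on GRCm38.p6, run 5′ to 3′, and carry the seed in capitals. Of the 6 members, 4 were matched in that table.

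miR-30a-5p: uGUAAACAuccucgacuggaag
miR-30e-5p: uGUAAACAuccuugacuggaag
miR-30c-5p: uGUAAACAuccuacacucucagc
miR-30a-3p: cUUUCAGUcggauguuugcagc
miR-30e-3p: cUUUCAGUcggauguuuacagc
miR-30c-1-3p: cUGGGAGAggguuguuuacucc
miR-30c-2-3p: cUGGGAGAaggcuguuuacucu

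The 5p arms printed share the seed GUAAACA. Counted from the 5′ end, miR-30a-5p and miR-30e-5p differ at a single base, C13U, and were identical at 21 of 22 positions. The 3p arms of the same genes also differ at a single base, G18A. miR-30c-5p matched miR-30a-5p, and likewise miR-30e-5p, at 17 of 22 positions, and its last bases are its own. miR-30a-5p lies at chr1:23272274-23272295 on the plus strand and miR-30a-3p at chr1:23272315-23272336 of the same hairpin. miR-30e-5p lies at chr4:120772660-120772681 on the minus strand. The same miR-30c-5p comes from Mir30c-2 (chr1:23291714-23291736, plus strand) and from Mir30c-1 (chr4:120769584-120769606, minus strand), so its signal cannot be divided between the genes. Only their 3p arms, miR-30c-2-3p and miR-30c-1-3p, differ, at 19 of 22 identical positions. How far a probe of one member binds another member was not tested.

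Levels are log2 values of the scanner's processed signal, scaled on each array to the 75th percentile of 221 probes that were well above background on every array, and they compare 1 miRNA between arrays, not different miRNAs with each other. The lowest level that can occur is the floor, 3.54. The arrays detected 220 to 334 mouse miRNAs, and the 330 miRNAs that both normal arrays, or 7 or more tumour arrays, detected were tested. All 6 members passed this filter. The 5p arms had a probe well above background on all 25 arrays, whereas miR-30a-3p had one on both pools and on all 7 Met arrays but on only 3 of 8 MetTrp53 and 3 of 8 Trp53 arrays. In bulk tissue, fewer cells of a type and less of an RNA per cell cannot be told apart.

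miR-30a-5p, the principal arm of Mir30a, covered the widest range of the family. Its level was 8.63 in normal pool 1 and 8.41 in pool 2. In the Met tumours it ran from 6.52 to 10.40 with a median of 8.64, in the MetTrp53 tumours from 5.64 to 8.30 with a median of 6.66, and in the Trp53 tumours from 5.58 to 8.37 with a median of 6.50. Of the 7 Met tumours, 6 lay above every tumour of the other genotypes, and the exception was the spindloid Met tumour 2 at 6.52. All 16 MetTrp53 and Trp53 tumours lay below both normal pools, whereas 4 Met tumours lay above both. The share of all tested miRNAs with such splits was not counted.

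miR-30a-3p, the other arm of the same hairpin, had levels of 5.43 and 5.32 in the pools. The Met tumours ran from the floor of 3.54 to 7.28 with a median of 5.11. The median was 3.61 in MetTrp53, with a highest value of 4.86, and it was at the floor in Trp53, with a highest value of 5.38 in tumour 3. Most tumours with the Trp53 deletion thus gave only an upper bound for this arm.

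miR-30c-5p, made by 2 genes in 2 of the gene pairs, had levels of 7.88 and 7.44 in the pools. It ran from 4.99 to 9.05 in Met (median 7.47), from 4.65 to 7.07 in MetTrp53 (median 5.78) and from 5.26 to 6.98 in Trp53 (median 5.61). The highest Met tumours again lay above all others, while Met tumour 2 ranked 22 of all 23 tumours.

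The remaining 5p arms covered a narrower range. miR-30b-5p was at 6.64 and 6.76 in the pools and ran from 5.59 to 7.63 in Met (median 6.92), 5.05 to 6.90 in MetTrp53 (median 5.96) and 5.36 to 6.01 in Trp53 (median 5.73). miR-30d-5p, encoded next to it, was at 6.94 and 6.75 in the pools and ran from 5.89 to 7.87 in Met (median 6.86), 5.53 to 6.85 in MetTrp53 (median 6.28) and 6.14 to 6.46 in Trp53 (median 6.25). miR-30e-5p was at 6.67 and 6.06 in the pools and ran from 5.09 to 7.03 in Met (median 5.89), 4.49 to 6.47 in MetTrp53 (median 5.22) and 4.62 to 6.55 in Trp53 (median 4.91). For these 3 arms, as for the other members, the Met range overlapped the ranges of both other genotypes. The Trp53 tumours lay close together for miR-30b-5p and miR-30d-5p, with SDs of 0.19 and 0.11 over 8 tumours.

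**Figure D1:**
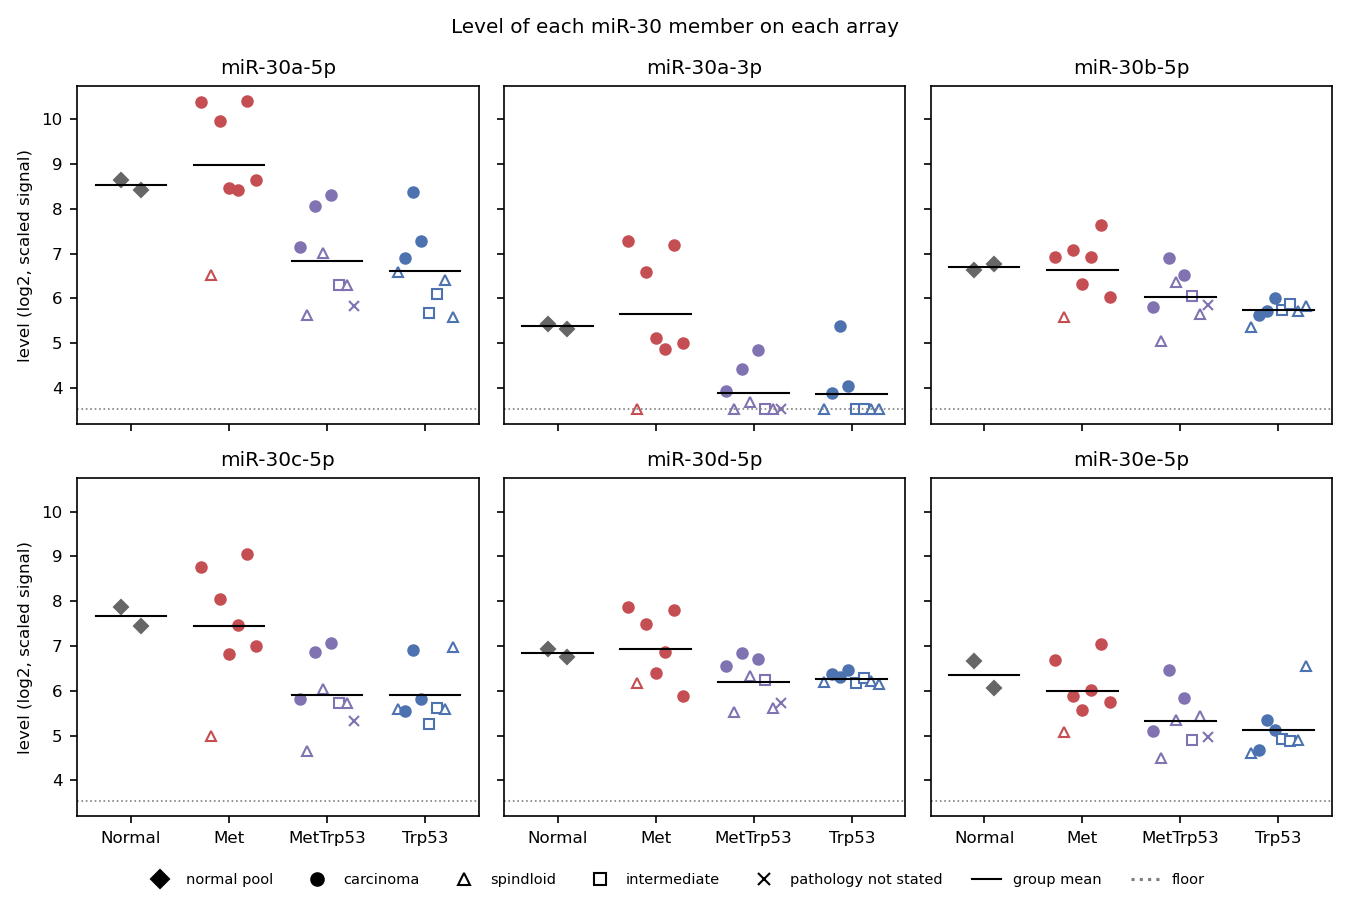
Level of each miR-30 member (log2 of the scaled signal, 1 panel a member) on each of the 25 arrays, grouped into normal pools and tumour genotypes; symbols mark pathology, bars the group mean and the dotted line the floor at 3.54. For miR-30a-5p 6 of 7 Met tumours lie above all MetTrp53 and Trp53 tumours, and the spindloid Met tumour 2 lies among the others.

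Over the 23 tumours the SD of the level was 1.50 for miR-30a-5p, 1.20 for miR-30a-3p and 1.17 for miR-30c-5p, ranks 18, 31 and 34 among the 330 miRNAs tested, whose median SD was 0.52. It was 0.71 for miR-30e-5p, 0.63 for miR-30b-5p and 0.61 for miR-30d-5p. The arms therefore form a wide-ranging group, both arms of Mir30a with miR-30c-5p, and a narrower group.

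Met and Trp53 tumours were compared to ask how the family differs between the transgene alone and the Trp53 deletion alone. Both arms of Mir30a, miR-30b-5p and miR-30c-5p were higher in Met, 4 of 6 members, against a background of 10% of the 330 miRNAs tested (15 of them higher in Met, 4.55%, and 18 lower, 5.45%). When only the 160 miRNAs detected on all arrays were tested, which left out miR-30a-3p, 26 of the 160 were called. The mean level of miR-30a-5p was 8.97 ± 1.40 (SD, n = 7) in Met and 6.62 ± 0.92 (SD, n = 8) in Trp53, a difference of 2.35 (SE 0.55, 95% interval 1.22 to 3.48, limma adjusted p = 0.00715), or 5.10-fold. miR-30a-3p had means of 5.65 ± 1.39 and 3.88 ± 0.64, a difference of 1.78 (SE 0.45, limma adjusted p = 0.0127). Only 3 of 8 Trp53 arrays measured this arm above background, so the size rests on the floor: it ran from 0.62 with normexp background correction to 2.78 with the summed signal over the alternatives. miR-30c-5p had means of 7.44 ± 1.37 and 5.92 ± 0.66, a difference of 1.53 (SE 0.48, limma adjusted p = 0.0445), or 2.89-fold. miR-30b-5p had means of 6.64 ± 0.70 and 5.74 ± 0.19, a difference of 0.91 (SE 0.26, limma adjusted p = 0.0310), or 1.87-fold.

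The other 2 members also had higher means in Met but did not pass the threshold. The difference of miR-30e-5p was 0.87 (SE 0.32, 95% interval 0.22 to 1.53, limma adjusted p = 0.0766), with means of 6.003 ± 0.66 and 5.13 ± 0.62. That of miR-30d-5p was 0.66 (SE 0.27, 95% interval 0.10 to 1.21, limma adjusted p = 0.119), with means of 6.93 ± 0.81 and 6.27 ± 0.11. The median difference over the 6 members was 1.22, beside 0.01 over all miRNAs tested. All probes of a member gave similar differences, from 2.26 to 2.42 for the 3 probes of miR-30a-5p, 1.62 and 1.94 for the 2 probes of miR-30a-3p, 0.91 and 0.90 for miR-30b-5p, 1.52 and 1.54 for miR-30c-5p, 0.65 and 0.66 for miR-30d-5p, and 0.87 and 0.88 for miR-30e-5p.

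These calls changed when single tumours were left out, when pathology or parity entered the model, and in subsets of the tumours. Leaving out Met tumour 1, 3 or 6, or Trp53 tumour 1 or 5, left 2 members called, both arms of Mir30a, and leaving out Met tumour 2 gave 6. The shares of all miRNAs called in these fits are not given here. With normexp miR-30a-5p was the only member called, beside 21 of 330 miRNAs, and miR-30a-3p had a limma adjusted p of 0.193. With pathology class as a covariate 0 members were called, against 2.12% of all miRNAs tested, and the difference of miR-30a-5p was 1.50 (limma adjusted p = 0.0648). With parity as a covariate 0 members were called, against 3.03%, and that of miR-30a-5p was 1.92 (limma adjusted p = 0.312). In the tumours that state parity, without the covariate, 0 members were called, against 3.33%, and it was 2.10 (limma adjusted p = 0.102). Every Met tumour of stated parity was from multiparous mice, so the parity covariate rests on differences within the other genotypes. Among carcinomas alone, 6 Met and 3 Trp53, 0 of the 330 miRNAs were called and the difference of miR-30a-5p was 1.85 (limma adjusted p = 0.273).

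Some markers of other cell types moved with this comparison. Of 7 epithelial miRNAs (the miR-200 family, miR-203-3p and miR-205-5p), 3 were higher in Met than in Trp53, miR-200c-3p by 4.43, miR-141-3p by 3.43 and miR-200a-3p by 2.85, and the median of the list was 3.03. The summed level of the epithelial list ran from 6.37 to 12.23 in Met (median 11.22), 6.35 to 11.64 in MetTrp53 (median 7.17) and 6.35 to 11.22 in Trp53 (median 6.40), and was 9.56 and 9.48 in the pools. A summed level of 6.35 is the floor of this list. Of 7 mesenchymal miRNAs 1 was lower in Met, miR-199b-5p, which fell by 2.16. The summed mesenchymal level ran from 7.51 to 11.45 in Met and 9.41 to 11.90 in Trp53. Of 6 leukocyte miRNAs 1 was lower in Met, miR-223-3p, which fell by 1.64, and the summed level ran from 7.27 to 10.64 in Met and 8.59 to 10.63 in Trp53. The median difference was -0.15 over the leukocyte list and -1.38 over the mesenchymal list. No marker of these 3 lists was at the floor on every array of a genotype, and their part in the miR-30 differences was not tested.

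The arrays lay on 5 slides, and every slide held Met and Trp53 tumours. Within slides 1 to 5, the Met mean of miR-30a-5p lay above the Trp53 mean by 3.64, 0.41, 2.78, 3.14 and 3.05. The small value came from slide 2, which held Met tumours 2 and 3 and Trp53 tumours 3 and 4. For the other members the within-slide difference was positive too, except on slide 5, where it was -0.26 for miR-30d-5p and -0.81 for miR-30e-5p. Slide 5 held 1 Met and 1 Trp53 tumour. With slide as a block in the model 3 members were called, beside 29 of 330 miRNAs. miR-30c-5p was not called, with a difference of 1.55 (limma adjusted p = 0.0598).

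MetTrp53 and Met tumours were compared to ask what the Trp53 deletion adds to the transgene. All 6 members had lower means in MetTrp53, but 0 passed the threshold, against 0% of all 330 miRNAs. At an unadjusted p under 0.05 in limma, the count was 6 of 6 members and 61 of the 330 miRNAs, 18.5%. miR-30a-5p had a mean of 6.83 ± 0.99 (SD, n = 8) in MetTrp53, a difference from Met of -2.14 (SE 0.55, 95% interval -3.27 to -1.01, limma adjusted p = 0.0580). miR-30a-3p, measured above background on 3 of 8 MetTrp53 arrays, differed by -1.77 (SE 0.45, limma adjusted p = 0.0580), with -2.77 to -0.73 over the alternatives. miR-30c-5p differed by -1.54 (SE 0.48, limma adjusted p = 0.0776). miR-30d-5p, miR-30e-5p and miR-30b-5p differed by -0.73, -0.69 and -0.61, with limma adjusted p-values of 0.112, 0.249 and 0.199. Without the spindloid Met tumour 2, 5 members were called lower, and the difference of miR-30a-5p was -2.55 (limma adjusted p = 0.00635). Leaving out MetTrp53 tumour 3 gave 3 called members, and leaving out MetTrp53 tumour 5 or Trp53 tumour 3 gave 2. For all these fits without a single tumour, the shares of all miRNAs called are not given here. With pathology class as a covariate the differences were smaller, -1.25 for miR-30a-5p (limma adjusted p = 0.674), -1.002 for miR-30c-5p and -0.38 for miR-30b-5p, and 0 members were called. With parity as a covariate 0 members were called, and the differences of miR-30b-5p, miR-30d-5p and miR-30e-5p were -0.20, -0.30 and -0.28, with that of miR-30a-5p at -1.68 (limma adjusted p = 0.588).

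MetTrp53 and Trp53 tumours, which share the Trp53 deletion, had close means for every member. The differences ran from -0.08 for miR-30d-5p to 0.29 for miR-30b-5p, with limma adjusted p-values of at least 0.889. Here 0 of 6 members and 0% of all miRNAs were called, and 23 of the 330 had an unadjusted p under 0.05 in limma, none of them a member. The 95% interval ran from -0.88 to 1.30 around a difference of 0.21 for miR-30a-5p, and from -0.97 to 0.94 around -0.02 for miR-30c-5p.

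A moderated F-test over the 3 genotypes called 2 members, against 5.76% of the miRNAs tested. They were miR-30a-5p (limma adjusted p = 0.0136) and miR-30a-3p (limma adjusted p = 0.0168), the 2 arms of 1 hairpin. With only the 160 miRNAs detected on all arrays tested, the F-test called 26 of the 160. Leaving out Met tumour 1, 3 or 6 left miR-30a-5p alone, and leaving out Met tumour 2 or 7 or MetTrp53 tumour 3 gave 4 members. Shares of all miRNAs are not given for these fits. With slide as a block miR-30a-3p had a limma adjusted p of 0.0507. With pathology class as a covariate neither arm was called (limma adjusted p of 0.164 for miR-30a-5p and 0.281 for miR-30a-3p), nor with parity (0.466 and 0.430).

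**Figure D2:**
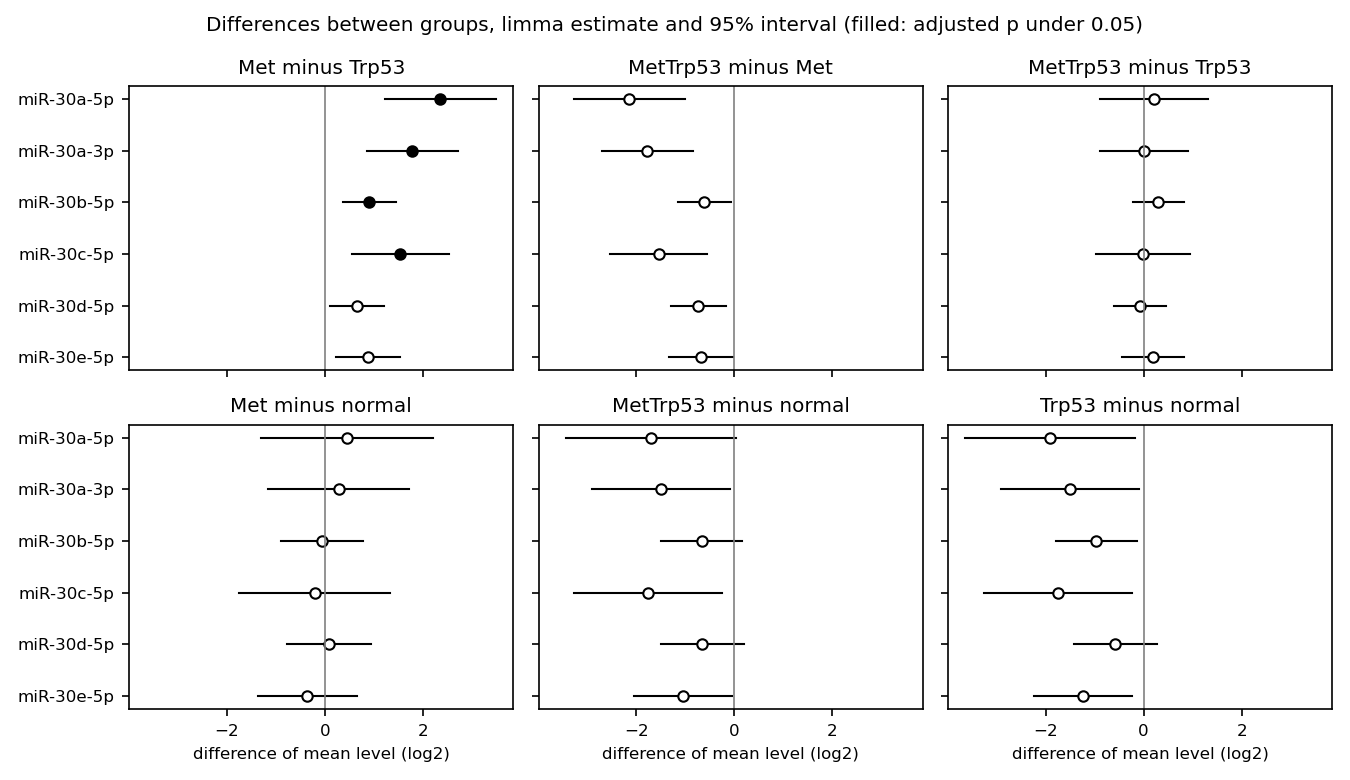
Difference of mean level (log2) for each miR-30 member in each comparison between groups, as the limma estimate with its 95% interval; filled symbols passed the adjusted threshold of 0.05. Filled symbols stand only in Met minus Trp53, for miR-30a-5p, miR-30a-3p, miR-30b-5p and miR-30c-5p, and the MetTrp53 minus Trp53 estimates lie between -0.08 and 0.29.

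Against normal gland, the Met tumours had member means on either side of the pools, and the other genotypes had lower means for all 6. The same 2 pools serve as control in each of these comparisons. Met minus normal ran from -0.36 for miR-30e-5p to 0.45 for miR-30a-5p, with 0 members called beside 12.4% of all miRNAs and limma adjusted p-values of at least 0.711. Scaling to all mouse probes moved the median of all miRNAs tested by -0.14 in this comparison, and 1 member instead of 3 then lay above 0. MetTrp53 minus normal ran from -1.76 for miR-30c-5p to -0.65 for miR-30d-5p, with 0 members called beside 14.8%, and 3 members had an unadjusted p under 0.05 in limma, as had 93 of the 330 miRNAs, 28.2%. Trp53 minus normal ran from -1.90 for miR-30a-5p to -0.58 for miR-30d-5p, with 0 called beside 13.3%, and 5 members had an unadjusted p under 0.05 in limma, as had 83 of the 330 miRNAs, 25.2%.

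By single samples, 17 of 23 tumours lay below both pools for miR-30a-5p, 18 for miR-30b-5p and miR-30d-5p, and 19 for miR-30a-3p, miR-30c-5p and miR-30e-5p. How many of all tested miRNAs have such counts was not determined. The mean of the 3 genotypes minus normal ran from -1.24 for miR-30c-5p to -0.38 for miR-30d-5p, with 0 called beside 12.7% and limma adjusted p-values of at least 0.233. The 2 pools set the precision here, with a 95% interval for miR-30c-5p of -2.65 to 0.17. Leaving out Trp53 tumour 8 called miR-30e-5p lower in Trp53 than in normal, by -1.44 (limma adjusted p = 0.0272), and leaving out Met tumour 2 called miR-30c-5p lower in MetTrp53, by -1.76 (limma adjusted p = 0.0455). Trp53 tumour 8 had the highest miR-30e-5p level of its group, 6.55, so leaving it out lowers that mean by construction. These fits are descriptions, and the shares of all miRNAs they called are not given here. The summed level of 5 skeletal muscle miRNAs was 13.33 and 13.83 in the pools against medians of 5.86, the floor of that list, in every genotype, and all 5 were called lower in each. Of 4 adipose miRNAs 2 were lower in each genotype. Of the 7 mesenchymal miRNAs miR-143-3p and miR-145-5p were lower in each genotype, and miR-10b-5p in Met and MetTrp53. Of the 7 epithelial miRNAs miR-203-3p was lower in Trp53, by -1.28. Their part in the miR-30 differences was not tested.

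Spindloid tumours were compared with tumours of other stated pathology, 7 against 15, with genotype as a covariate. All 6 members had lower means in spindloid tumours and 0 passed the threshold, against 0% of all miRNAs, with 4 members and 41 of 330 miRNAs at an unadjusted p under 0.05 in limma. The differences were -1.27 for miR-30a-5p (SE 0.44, limma adjusted p = 0.174), -0.93 for miR-30a-3p (limma adjusted p = 0.259), -0.81 for miR-30c-5p (limma adjusted p = 0.415), -0.55 for miR-30b-5p, -0.52 for miR-30d-5p and -0.24 for miR-30e-5p. With the 3 intermediate tumours as a class of their own, miR-30a-5p was lower in spindloid tumours than in the other carcinomas, by -1.74 (SE 0.37, limma adjusted p = 0.00949), 1 of 6 members beside 5.76% of all miRNAs. The intermediate tumours differed from the carcinomas by -1.77 for miR-30a-5p (SE 0.51, limma adjusted p = 0.134), with 0% of miRNAs called.

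Most carcinomas lay above every spindloid tumour for the 2 arms of Mir30a and for miR-30d-5p. miR-30a-3p ran from 3.89 to 7.28 in the 12 carcinomas, and each of these lay above all 7 spindloid tumours, which ran from the floor to 3.69, and above the 3 intermediate tumours, all at the floor. No other tested miRNA had all carcinomas above all spindloid tumours (1 of 330, 0.303%). The gap rests on signal near the floor. The lowest carcinoma, Trp53 tumour 2, had 1 of 2 probes well above background. The highest spindloid tumour, MetTrp53 tumour 4, had 0. Genotype was not balanced, as 6 of the 12 carcinomas but 1 of the 7 spindloid tumours came from Met mice. miR-30a-5p ran from 6.91 to 10.40 in the carcinomas, 5.58 to 7.02 in the spindloid and 5.67 to 6.29 in the intermediate tumours, with 11 of 12 carcinomas above every spindloid tumour. That count was 10 for miR-30d-5p, 6 for miR-30b-5p and miR-30c-5p, and 2 for miR-30e-5p. How many of the 330 miRNAs reach 10 or 11 of 12 was not counted. The epithelial list also had a lower median in spindloid tumours, by -2.25, with 0 of 7 called, and its part in these values was not tested.

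The highest levels of the family came from the 3 solid nodular carcinomas, a description made after their values were seen. Met tumours 1, 3 and 6 had miR-30a-5p levels of 10.39, 9.97 and 10.40, against 8.45, 8.41 and 8.64 in the other 3 Met carcinomas. The means of the 2 sets differed by 1.75 for miR-30a-5p, 2.02 for miR-30a-3p, 1.53 for miR-30c-5p and 1.34 for miR-30d-5p, each with p = 0.1 in a two-sided exact permutation test, the smallest that 3 against 3 allows. For these 4 members the solid nodular carcinomas lay above all 20 other tumours, which held for 13 of the 330 miRNAs tested, 3.94%. The differences of 0.79 for miR-30b-5p and 0.76 for miR-30e-5p had an exact permutation p of 0.2. The split was chosen after these values were seen, so these p-values and the count of 13 miRNAs describe it and do not test it. The arrays of these 3 tumours detected 220, 277 and 257 miRNAs, against 299 to 323 on the other 4 Met arrays. Their summed epithelial levels were 12.23, 11.33 and 12.16, against 11.18, 10.84 and 11.22 in Met tumours 4, 5 and 7. Their summed mesenchymal levels were 7.51, 7.97 and 8.89, against 9.65, 10.60 and 8.03, and their leukocyte levels 7.51, 7.27 and 8.69, against 9.29, 10.64 and 8.26. The part of these in the miR-30 levels was not tested.

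Members that come from neighbouring genes were then set against each other. Over the 23 tumours, miR-30a-5p and miR-30c-5p correlated at r = 0.90 and rho = 0.78, miR-30b-5p and miR-30d-5p at r = 0.86 and rho = 0.75, and miR-30e-5p and miR-30c-5p at r = 0.89 and rho = 0.88. Each r had a permutation p of 1e-05, the smallest that 100000 resamples can give (2.14e-05 after Benjamini-Hochberg adjustment over 15 pairs), and the adjusted p of rho was 9e-05, 0.00015 and 5e-05. Leaving out the 2 tumours farthest from the median gave r = 0.82 for the Mir30a pair and for the Mir30e pair, and 0.77 for the Mir30b pair. With genotype means subtracted, r was 0.83, 0.84 and 0.86 for the 3 pairs in the same order.

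Within genotypes the pairs did not all hold. Within Met, r was 0.98 for miR-30a-5p and miR-30c-5p, 0.88 for miR-30b-5p and miR-30d-5p, and 0.94 for miR-30e-5p and miR-30c-5p. Within MetTrp53 it was 0.96, 0.85 and 0.90. Within Trp53 it was 0.31, 0.38 and 0.83, with adjusted exact permutation p-values of 0.738, 0.738 and 0.0489. Trp53 tumour 8 moved these values. Without it, over the other 7 Trp53 tumours, r was 0.91 for miR-30a-5p and miR-30c-5p, 0.56 for miR-30b-5p and miR-30d-5p, and 0.77 for miR-30e-5p and miR-30c-5p, where the adjusted exact permutation p was then 0.139. These are descriptions, since the tumour was picked for its distance from the miR-30a-5p and miR-30c-5p trend. Over the other 22 tumours r for that pair was 0.97.

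Members from separate loci reached similar correlations. Over all 15 pairs of members, r ran from 0.70 for miR-30d-5p with miR-30e-5p to 0.96 for the 2 arms of Mir30a, with a median of 0.84. miR-30b-5p and miR-30c-5p, from separate loci, correlated at 0.87, beside the 0.86 of miR-30b-5p with its neighbour miR-30d-5p. miR-30a-5p and miR-30d-5p, also from separate loci, correlated at 0.84. Over the 52650 pairs of tested miRNAs whose levels varied between tumours, the median r was 0.00. Of these pairs, 3.14% had an r at or above the lowest of the member pairs. These points share their arrays and the scaling of each array.

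**Figure D3:**
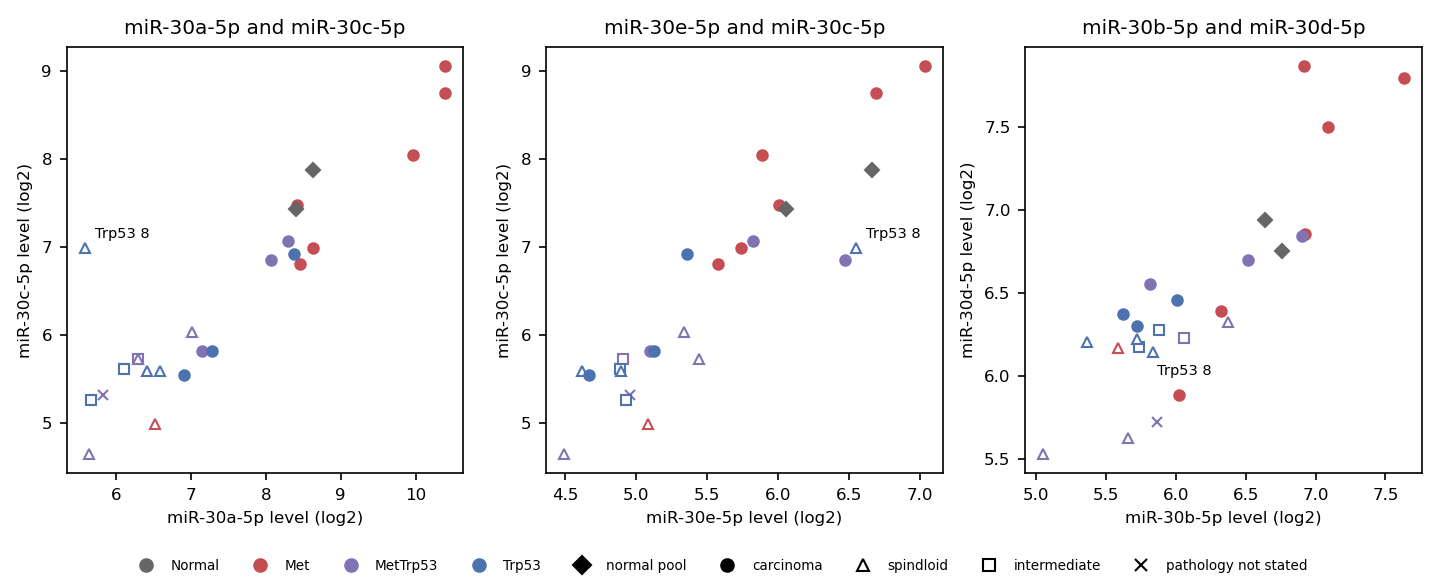
Levels (log2 of the scaled signal) of the members of each gene pair against each other, 1 point an array, coloured by group with symbols for pathology. Points rise together in each panel with r between 0.86 and 0.90 over the 23 tumours, and Trp53 tumour 8 stands off the miR-30a-5p and miR-30c-5p trend at 5.58 and 6.98.

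In the log2 ratio of 2 members within an array the scaling cancels, except where a probe is at the floor. Apart from such probes the ratio shows whether the members changed equally. Its size alone has no meaning because probes differ in brightness. The dimmer probe of miR-30e-5p was well above background on only 19 of 25 arrays. For miR-30a-5p over miR-30c-5p the mean was 1.52 ± 0.31 (SD, n = 7) in Met, 0.92 ± 0.33 in MetTrp53, 0.70 ± 0.95 in Trp53 and 0.86 ± 0.15 in the pools. Met exceeded Trp53 by 0.82 (exact permutation p = 0.0199, adjusted p = 0.0597), or by 0.52 without Trp53 tumour 8 (exact permutation, adjusted p = 0.0839), and MetTrp53 lay below Met by -0.60 (exact permutation p = 0.00497, adjusted p = 0.0597). For miR-30b-5p over miR-30d-5p the mean was -0.28 ± 0.39 in Met, -0.16 ± 0.30 in MetTrp53 and -0.53 ± 0.18 in Trp53, and MetTrp53 exceeded Trp53 by 0.37 (exact permutation p = 0.0126, adjusted p = 0.0597). For miR-30e-5p over miR-30c-5p it was -1.44 ± 0.78 in Met, -0.58 ± 0.35 in MetTrp53 and -0.79 ± 0.38 in Trp53. MetTrp53 exceeded Met by 0.86 (exact permutation p = 0.0180, adjusted p = 0.0597), and spindloid tumours exceeded the others by 0.56 within genotypes (exact permutation p = 0.0132, adjusted p = 0.0597).

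These were 15 two-sided tests, 3 pairs in 5 comparisons. Of them 5 had an unadjusted p under 0.05 and 0 passed after Benjamini-Hochberg adjustment. Met minus Trp53 for miR-30e-5p over miR-30c-5p was -0.65 (exact permutation p = 0.0564, adjusted p = 0.141), and without Met tumour 2 it was -0.91 (exact permutation, adjusted p = 0.0175). Without that tumour, MetTrp53 minus Met for this pair was 1.12 (exact permutation, adjusted p = 0.00999), while the spindloid difference was 0.27. Values without Met tumour 2 are descriptions, since it was picked after lying far from the other Met tumours in this ratio. Tumours did not pass against normal for any pair (exact permutation p of at least 0.443).

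**Figure D4:**
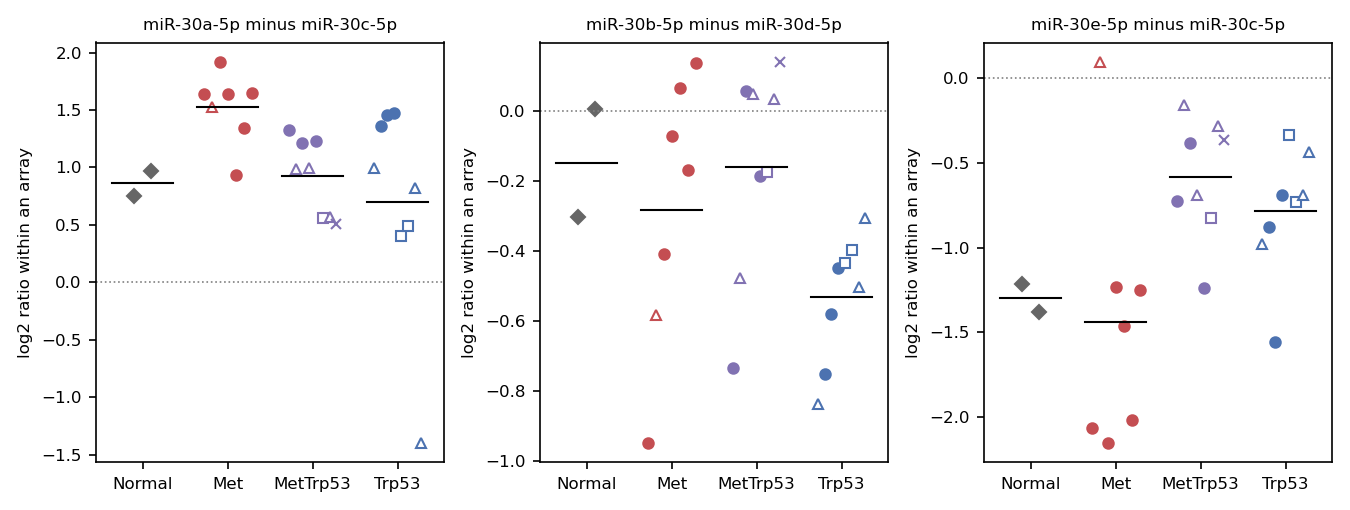
Log2 ratio within an array for the 3 gene pairs, 1 point an array, by group, with the group mean as a bar and symbols for pathology. Trp53 tumour 8 stands at -1.40 for miR-30a-5p over miR-30c-5p, and Met tumour 2 at 0.10 for miR-30e-5p over miR-30c-5p, where the other 6 Met tumours lie between -2.16 and -1.23.

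Trp53 tumour 8, a spindloid tumour, carried the members in opposite directions, and it was singled out after its values were seen. Its miR-30a-5p level of 5.58 was the lowest of all 23 tumours, and miR-30a-3p was at the floor. Its miR-30e-5p level of 6.55 lay above the other 7 Trp53 tumours, which ran from 4.62 to 5.36, and ranked 3 of 23. Its miR-30c-5p level of 6.98 lay above their range of 5.26 to 6.92 and ranked 7. The 3p arm of Mir30e followed, at 4.30 against 3.54 to 4.19. Both 3p arms of miR-30c were at the floor, where miR-30c-1-3p was in all tumours and miR-30c-2-3p in most other Trp53 tumours. miR-30b-5p, at 5.84, lay within the range of the other Trp53 tumours, and miR-30d-5p, at 6.14, just under it. The array detected 279 miRNAs, and its summed epithelial level of 6.35, the floor of that list, was also that of Trp53 tumours 6 and 7.

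The array holds 5 more miR-30 arms. miR-30e-3p, which shares its seed with miR-30a-3p, was well above background on 19 arrays, both pools, all 7 Met, 6 of 8 MetTrp53 and 4 of 8 Trp53. Its levels in Met ran from 3.54 in tumour 2 to 5.18 in tumour 6, and Met minus Trp53 was 0.51 (limma adjusted p = 0.102). miR-30c-2-3p was well above background on both pools, 6 of 7 Met, 0 of 8 MetTrp53 and 1 of 8 Trp53 arrays. With values floored, its mean was 1.32-fold higher in Met than in MetTrp53 and was not called (limma adjusted p = 0.0776). The size rests on the floor, where all 8 MetTrp53 arrays and Met tumour 2 stood. miR-30b-3p was well above background on 1 array and miR-30c-1-3p and miR-30d-3p on 0, so these 3 arms gave no comparison.

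Beyond the family, the miRNAs whose level most resembled each member over the 23 tumours were listed by Pearson's r, as a description over points that share their arrays. miR-30a-5p was closest to miR-30a-3p (0.96), miR-146b-5p (0.94) and miR-148a-3p (0.92), the last an abundant miRNA of milk and mammary epithelium. miR-30a-3p was closest to miR-30a-5p, miR-181c-5p (0.93) and miR-30c-5p (0.92). miR-30c-5p had only miR-30 arms among its closest 3, miR-30e-3p (0.94), miR-30a-3p (0.92) and miR-30a-5p (0.90). miR-30b-5p was closest to miR-30c-5p (0.87), miR-30d-5p (0.86) and miR-148a-3p (0.83), and miR-30e-5p to miR-30c-5p (0.89), miR-30e-3p (0.87) and miR-23b-3p (0.83). miR-30d-5p was the exception, with let-7b-5p (0.91), let-7c-5p (0.89) and miR-26a-5p (0.88), miRNAs associated with differentiated cells, ahead of every other miR-30 arm.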

How the data were processed

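Per the file headers, Agilent Feature Extraction 10.7.3.1 gave 1 intensity for each spot, with background subtracted and no normalisation from array to array. A second deposited file holds the authors' log2 values, for which the submitters' processing notes name RMA, with no version or role. Its centring is unknown, and its column medians lay between 1.72 and 1.91. Spots marked as outliers were left out. The other spots of a probe were averaged, divided by the array's 75th percentile over 221 probes, floored at 0.0212 of that percentile and put on the log2 scale, and probes of a miRNA were averaged. That percentile ranged from 278.9 to 908.9 intensity units, 14.0 to 21.9% of mouse spots were well above background, and 0 spots were saturated. The number of arrays limits the precision.

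All 25 arrays entered 1 limma 3.58.1 model with 4 groups (R 4.3.3), with Benjamini-Hochberg adjustment over 330 miRNAs and a threshold of 0.05. Pathology was fitted in 22 tumours. Pair ratios had exact permutation tests and correlations 100000 resamples. The code was tested on simulated data.

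The miRNAs named are the members, the other miR-30 arms, the 3 most alike of each member, and called markers. Members and lists were chosen with earlier results of these data known. The splits by solid nodular carcinoma, Met tumour 2, Trp53 tumour 8, carcinomas alone and slide were chosen after seeing the data. Groups come from the labels, and replicates are numbered in accession order. The marker lists were epithelial, mesenchymal, leukocyte, skeletal muscle, adipose, endothelial and erythroid. Of 2 endothelial miRNAs, 2 were lower in Met than in normal, 1 in MetTrp53 and 1 in Trp53; of 3 erythroid miRNAs, 2 were tested and 0 called. Alternatives changed the background correction (normexp with an offset of 50, on median signals since the files hold no mean signal), scaling, spot summary, floor, filter, batch, covariates and samples.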

Additional observations from a re-analysis of the deposited data

Results flagged for a closer look

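Of 27 sets of values of 4 to 10 samples, 4 held a sample far from the others by Dixon's test. Chance does so in about 1 of 20 sets of independent, normally distributed values. These sets are not independent, as the ratios reuse the member levels, and most miR-30a-3p values of Trp53 are at the floor. Met tumour 2, spindloid, had a log2 ratio of miR-30e-5p over miR-30c-5p of 0.10, where the next highest Met tumour was at -1.23. Trp53 tumour 3, a poorly differentiated adenocarcinoma, had a miR-30a-3p level of 5.38, where the next highest Trp53 tumour was at 4.04 and the median at the floor of 3.54. Trp53 tumour 8, spindloid, had a miR-30e-5p level of 6.55, where the next highest Trp53 tumour was at 5.36, and a log2 ratio of miR-30a-5p over miR-30c-5p of -1.40, where the Trp53 median was 0.91. The explanations for these values were not tested.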

How the results depend on the processing

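Met minus Trp53 was positive for all 6 members under every alternative run, apart from the 2 within-slide values of slide 5. The number of members called, 4 as reported, was 2 with the percentile over all mouse probes, with quantile normalisation and with only the 2 groups in the model, 1 with normexp and with no filter, 3 with the slide block, and 0 with the parity covariate, the pathology covariate, only tumours that state parity (3.33% of all miRNAs called) and only carcinomas. It was 2 to 6 when leaving out single arrays. Of all 330 miRNAs, 26 were called with the percentile over all mouse probes, 25 with quantile normalisation and 26 with only the 2 groups. Normexp called 21, the slide block 29, the parity covariate 10 and the pathology covariate 7. With no filter 14 of 1122 were called. For MetTrp53 against Met, 0 as reported, it was 2 with the summed signal and with the authors' table, 1 with a floor 4 times lower and with only miRNAs detected on all arrays, and 0 to 5 when leaving out single arrays. For the F-test, the number of members called, 2 as reported, was 1 with the percentile over all mouse probes, normexp and the slide block. These called 13, 14 and 12 of all 330 miRNAs. The number of members was 0 with no filter, with either covariate, with stated parity only and with only carcinomas, and 1 to 4 when leaving out single arrays. With only the 2 groups in the model, 1 member was called lower in MetTrp53 than in normal, beside 50 of 330 miRNAs called. In Trp53 it was 3 members, beside 46 of 330. Leaving out single arrays gave 0 to 1 members in each. Intermediate tumours as a class of their own gave 1 member in spindloid tumours. Where the normal group was left with 1 pool, that pool was assumed to vary like the other groups.

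For miR-30a-5p over miR-30c-5p, Met minus Trp53 passed at 0.81 with normexp and 0.83 with tumours of 1 title number averaged and ran from 0.52 to 0.93 when leaving out single arrays, and MetTrp53 minus Met passed at -0.60 with a floor 2 times higher, -0.66 with normexp and -0.60 with title numbers averaged, with -0.70 to -0.53 when leaving out single arrays. MetTrp53 minus Trp53 ran from -0.076, without Trp53 tumour 8, to 0.33, and tumours minus normal was -0.029 with normexp. For miR-30b-5p over miR-30d-5p, MetTrp53 minus Trp53 passed at 0.35 with the higher floor and 0.18 with normexp, with 0.33 to 0.45 when leaving out single arrays. Its spindloid difference was 0.11 with the higher floor, 0.0091 with normexp, and -0.094 to 0.046 when leaving out single arrays. For miR-30e-5p over miR-30c-5p, Met minus Trp53 passed at -0.92 with the higher floor and ran from -0.91 to -0.54 when leaving out single arrays. MetTrp53 minus Met passed at 0.997 with the higher floor and 0.67 with normexp and ran from 0.74 to 1.12, and the spindloid difference from 0.27 to 0.66. Correlations that no longer passed were 0.31 and 0.38 within Trp53 for the Mir30a and Mir30b pairs, and, within Trp53 without tumour 8, 0.56 for the Mir30b pair and 0.77 for the Mir30e pair. The causes were not tested.

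Met minus normal changed sign in 8 of 89 member values over the alternatives and in 9 of 150 when leaving out single arrays, and MetTrp53 minus Trp53 in 20 of 113 and 17 of 150, with 0 called. No paired analysis was possible because the labels give the groups no shared replicate numbers. The spindloid comparison was not run with title numbers averaged. Signal over background limits miR-30a-3p and the other 3p arms, which were at or near the floor on many tumour arrays.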
